A study of Mus musculus with 6 samples.

Results

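The T cell receptor complex and its coreceptors were described from 10 genes chosen by symbol: the CD3 chains Cd3d, Cd3e, Cd3g and Cd247, the coreceptor chains Cd4, Cd8a and Cd8b1, and the receptor constant regions Trac, Trbc2 and Trdc. Of the 35434 genes in the deposited table, 7 bore one of these symbols, and Trac, Trbc2 and Trdc were not analysed here. Of these 7 genes, 5 reached 0.5 FPKM (fragments per kilobase of gene, scaled to library depth) in at least 3 of the 6 libraries and were tested. Cd8a and Cd8b1 lay below that level.

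The libraries were bulk RNA-seq of skin lesions from mice with psoriasis, 3 from mice given Tregs (regulatory T cells) treated with lenvatinib, an inhibitor of receptor tyrosine kinases (Lenv-Treg), and 3 from mice given control Tregs (Ctrl-Treg). The series asks whether lenvatinib-treated Tregs differ from control Tregs in their effect on inflammation. All 6 mice or lesions thus share the disease and a cell transfer, and no library came from skin without disease or without transferred cells. The labels give no strain, age, way of inducing the disease, cell dose or time of sampling. They do not state how many mice stand behind each group, and p-values here cover the spread between samples, part of which may be technical. No gene in the table marks the transferred cells, so host and transferred T cells were read together. In bulk skin, fewer T cells and less RNA per T cell cannot be told apart. Depth was 38704536 to 40248462 assigned reads per library, recovered from the steps between FPKM values, so that the largest library was 1.04 times the smallest.

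The T cell receptor recognises peptide on MHC molecules with a pair of variable chains that have almost no cytoplasmic tail. It signals through the CD3 gamma, delta and epsilon chains and the zeta chain, encoded by Cd247, whose tails carry the tyrosine motifs (ITAMs) that the kinase Lck phosphorylates and Zap70 then binds. CD4 binds MHC class II and CD8 binds MHC class I, and both bring Lck to the receptor. In mouse skin, gamma delta T cells live in the epidermis and dermis beside alpha beta T cells, and in the mouse most gamma delta receptors hold CD3 gamma and lack CD3 delta. Cd247 is also used by NK cells, and Cd4 and Cd8a are also found on some dendritic cells.

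Cd3g and Cd3d are neighbours transcribed away from each other. Their upstream sequences are shown because, among the ratios computed, only theirs separated the groups (given with the ratios). Not every pair of members was computed, and this ratio was chosen after the values were seen and carries no test. Their RefSeq starts lie 1355 bases apart on chromosome 9 of GRCm38.p6. RefSeq promoter windows were held for 5 of the 7 genes (Cd3d, Cd3e, Cd3g, Cd247 and Cd8a). Each run gives the 250 bases before the start on the strand of the gene, chr9:44980432-44980681 (minus strand) for Cd3g and chr9:44981536-44981785 (plus strand) for Cd3d, 5′ to 3′, with capitals at CAGGTG on either strand (CACCTG on the other), an E-box of the kind bound by E proteins such as Tcf3 and Tcf12.
Cd3g: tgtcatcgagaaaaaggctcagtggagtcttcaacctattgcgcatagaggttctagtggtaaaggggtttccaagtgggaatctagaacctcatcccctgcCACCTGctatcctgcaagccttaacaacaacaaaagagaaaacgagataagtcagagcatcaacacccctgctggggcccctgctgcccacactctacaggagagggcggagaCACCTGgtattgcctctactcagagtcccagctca
Cd3d: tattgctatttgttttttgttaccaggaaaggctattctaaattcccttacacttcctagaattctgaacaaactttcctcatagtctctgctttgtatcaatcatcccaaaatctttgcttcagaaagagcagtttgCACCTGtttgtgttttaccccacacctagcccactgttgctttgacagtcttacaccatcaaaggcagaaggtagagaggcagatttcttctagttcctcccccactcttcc

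Cd3g held 2 copies of CAGGTG, and Cd3d and Cd247 held 1 each, whereas Cd3e and Cd8a held 0 in this window. The motif was present on either strand in 17.2% of 32851 promoters of the same length. AGGAAG, an ETS-type motif, was in the windows of Cd3d, Cd3e and Cd247 and in 29.5% of all promoters. Factors such as Gata3 bind sites holding AGATAA, which was found in the window of Cd3g and in 9.99% of all promoters. The core of the TATA box, TATAAA, was in none of the 5 member windows and in 12.4% of all. These 4 motifs were searched on both strands, no matches in the Cd3g and Cd3d windows overlapped, and a match describes letters, not a binding site.

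Per length, Cd3g had the highest level of the 7 genes, with a mean of 7.49 FPKM over the 6 libraries, above Cd3d (1.96 FPKM) in 6 of 6. Cd3d and Cd4 (1.88 FPKM) could not be ordered, since Cd3d was the higher in 3 of 6 libraries. Cd4 exceeded Cd3e (1.5 FPKM) in 5 of 6, and Cd3e exceeded Cd247 (0.647 FPKM) in 6 of 6. Cd247 exceeded Cd8b1 (0.162 FPKM) in 6 of 6. Cd8b1 was above Cd8a (0.14 FPKM) in 4 of 6, and these neighbours did not differ beyond their spread.

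None of the 5 tested members passed the test in either direction (limma on log2(FPKM + 1) over 13945 genes, Benjamini-Hochberg adjusted p of at most 0.05). Over all tested genes, 41.7% passed, 11.0% higher and 30.8% lower in Lenv-Treg skin (1532 and 4289 genes). After median-of-ratios scaling 34.7% passed, 17.3% in each direction (2417 and 2417 genes), and after rescaling to TPM 63.9%, with 6.79% higher and 57.2% lower (947 and 7970 genes). With limma voom on recovered reads 42.1% passed, 11.0% higher and 31.1% lower. In each of the 7 members the FPKM values of the groups overlapped, whereas 55.4% of tested genes had groups that did not overlap. The median log2 difference of the 5 members was -0.22, beside -0.17 over all tested genes. The scalings shifted that all-gene median to 0.00 and -0.44, and the members' median to -0.09 and -0.48, with median-of-ratios first. These medians rest on log2(FPKM + 1), where the added 1 understates changes of low genes. Voom on recovered reads gave 0.19 for Cd3d, -0.47 for Cd3e, -0.58 for Cd3g, -0.39 for Cd247 and -0.32 for Cd4. Its median over all tested genes was -0.21. Whether the members moved apart from other genes was not tested.

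**Figure D1:**
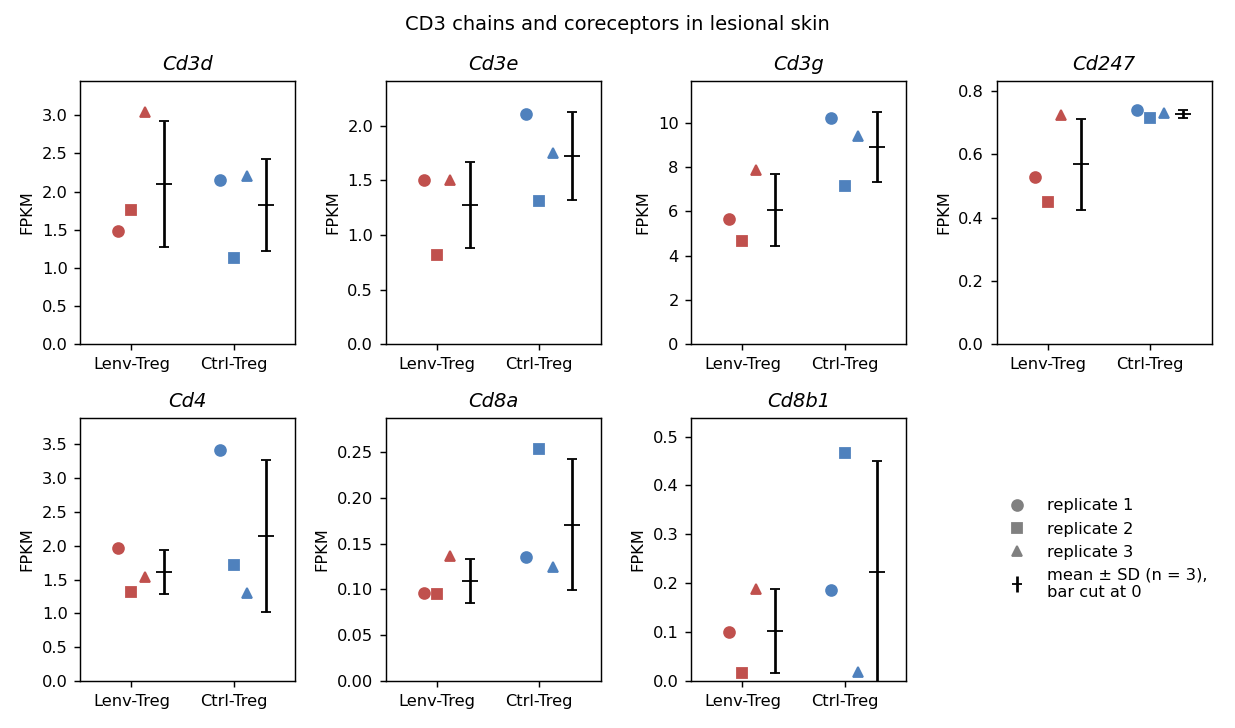
FPKM of the 7 genes in each library, one panel per gene, with Lenv-Treg left of Ctrl-Treg (n = 3 each). Points are libraries and bars are the mean and SD; the points of the groups overlap in all 7 panels.

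Cd3d encodes the CD3 delta chain. It had 1.49, 1.76 and 3.04 FPKM in Lenv-Treg libraries 1 to 3, against 2.15, 1.13 and 2.2 FPKM in Ctrl-Treg libraries 1 to 3. The highest value was Lenv-Treg replicate 3 and the lowest was Ctrl-Treg replicate 2, with the other libraries between them in no order of group. The means were 2.1 ± 0.828 FPKM in Lenv-Treg and 1.83 ± 0.605 FPKM in Ctrl-Treg skin (SD, n = 3 each). The log2 difference was 0.12 (SE 0.22, 95% interval -0.40 to 0.65, limma adjusted p = 0.688), and it was -0.08 after rescaling to TPM. The recovered reads behind these values were 90, 107 and 182 in Lenv-Treg and 131, 67 and 129 in Ctrl-Treg libraries.

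Cd3e encodes CD3 epsilon, which pairs with both CD3 delta and CD3 gamma. Its levels were 1.5, 0.819 and 1.5 FPKM in Lenv-Treg and 2.11, 1.31 and 1.75 FPKM in Ctrl-Treg libraries. Lenv-Treg replicate 2 was the lowest of all, while the other Lenv-Treg libraries lay within the range of the Ctrl-Treg libraries. The means were 1.27 ± 0.393 FPKM in Lenv-Treg and 1.73 ± 0.401 FPKM in Ctrl-Treg skin, a log2 difference of -0.27 (SE 0.16, 95% interval -0.65 to 0.12, limma adjusted p = 0.224).

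Cd3g encodes CD3 gamma and came nearest to the threshold. It had 5.67, 4.66 and 7.85 FPKM in Lenv-Treg and 10.2, 7.14 and 9.4 FPKM in Ctrl-Treg libraries. Lenv-Treg replicates 1 and 2 lay below all Ctrl-Treg libraries, and Lenv-Treg replicate 3 lay above Ctrl-Treg replicate 2. The means were 6.06 ± 1.63 FPKM in Lenv-Treg and 8.92 ± 1.6 FPKM in Ctrl-Treg skin, a 0.68-fold ratio. The log2 difference of -0.50 (SE 0.19) had an adjusted p of 0.0677 (limma), and its 95% interval of -0.94 to -0.06 is for this gene alone, unadjusted. On the recovered reads (232, 192 and 318 in Lenv-Treg against 421, 286 and 372 in Ctrl-Treg libraries), limma voom gave -0.58 with an adjusted p of 0.0783. The gene passed after rescaling to TPM (-0.80, adjusted p = 0.00806), without Lenv-Treg replicate 3 (-0.68, adjusted p = 0.0264) and without Ctrl-Treg replicate 2 (-0.64, adjusted p = 0.0428), and after median-of-ratios scaling it stood at -0.32 (adjusted p = 0.245).

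Cd247 encodes the zeta chain, the receptor's main signalling tail. Its levels were 0.528, 0.449 and 0.725 FPKM in Lenv-Treg and 0.738, 0.714 and 0.73 FPKM in Ctrl-Treg libraries. The Ctrl-Treg libraries were close together, and Lenv-Treg replicate 3 lay among them while the other Lenv-Treg libraries were lower. The means were 0.567 ± 0.142 FPKM in Lenv-Treg and 0.728 ± 0.012 FPKM in Ctrl-Treg skin, a log2 difference of -0.14 (SE 0.09, 95% interval -0.36 to 0.07, limma adjusted p = 0.248). After rescaling to TPM the difference was -0.37 and passed (adjusted p = 0.0372).

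Summed over Cd3d, Cd3e, Cd3g and Cd247, the recovered reads were 560, 475 and 790 in Lenv-Treg libraries (14, 11.8 and 19.9 per 1000000 assigned reads), against 888, 626 and 801 in Ctrl-Treg libraries (22.1, 16 and 20.7 per 1000000). The groups overlapped in this sum through Lenv-Treg replicate 3 and Ctrl-Treg replicate 2.

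**Figure D2:**
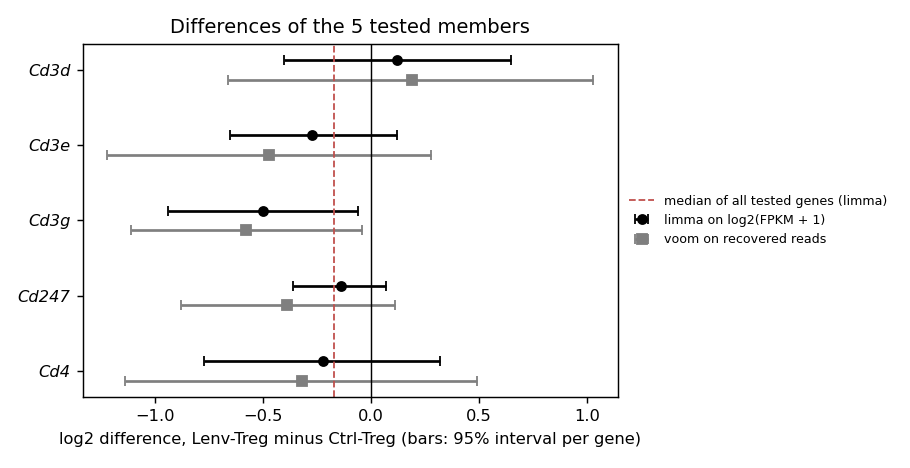
Log2 difference, Lenv-Treg minus Ctrl-Treg, of the 5 tested genes, from limma on log2(FPKM + 1) in black and limma voom on recovered reads in grey, with 95% intervals for each gene alone and a dashed line at the median of all tested genes (-0.17). The limma interval of Cd3g (-0.94 to -0.06) lies below 0 before adjustment, and those of Cd3d, Cd3e, Cd247 and Cd4 include 0.

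Cd4, the coreceptor of helper and regulatory T cells, had 1.96, 1.32 and 1.54 FPKM in Lenv-Treg and 3.42, 1.71 and 1.3 FPKM in Ctrl-Treg libraries. A single Ctrl-Treg library, replicate 1, stood above the rest, and the lowest value was also from a Ctrl-Treg library. The means were 1.6 ± 0.327 FPKM in Lenv-Treg and 2.15 ± 1.12 FPKM in Ctrl-Treg skin, with a log2 difference of -0.22 (SE 0.23, 95% interval -0.77 to 0.32, limma adjusted p = 0.47). Without Ctrl-Treg replicate 1 the difference was 0.05 (adjusted p = 0.795).

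Cd8a and Cd8b1, the chains of the coreceptor of cytotoxic T cells, were read from few fragments. Cd8a had 12, 12 and 17 reads in Lenv-Treg libraries (0.0959, 0.0953 and 0.137 FPKM), against 17, 31 and 15 in Ctrl-Treg libraries (0.135, 0.253 and 0.124 FPKM). One library, Ctrl-Treg replicate 2, was apart from the rest, which were close together. The exact permutation test gave p = 0.3 (two-sided), where 3 against 3 samples cannot go below 0.1 at any depth.
Cd8b1 had 6, 1 and 11 reads in Lenv-Treg libraries (0.101, 0.0168 and 0.188 FPKM), against 11, 27 and 1 in Ctrl-Treg libraries (0.185, 0.466 and 0.0174 FPKM). Each group held a library with a single read, and Ctrl-Treg replicate 2 was again the highest. The exact permutation test gave p = 0.6 (two-sided).

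Cd8a is also found on some cross-presenting dendritic cells, though bulk libraries do not show whether those of skin carry it. Xcr1 and Batf3, 2 genes of cross-presenting dendritic cells, are given beside it. They had the lowest p in the dendritic and Langerhans list once its 2 most abundant genes, Clec10a and Epcam, were set aside. Of the 11 tested genes of that list, 1 was higher (Clec10a), 4 were lower and 6 did not pass. Xcr1, the chemokine receptor of cross-presenting dendritic cells, had 0.0449, 0.00558 and 0.034 FPKM in Lenv-Treg and 0.921, 0.516 and 1.08 FPKM in Ctrl-Treg libraries. It fell (log2 difference -0.83, limma adjusted p = 0.0021). Batf3, a factor they need, averaged 4.66 ± 1.3 FPKM in Lenv-Treg and 8.26 ± 1.04 FPKM in Ctrl-Treg skin (n = 3 each), and fell by 0.73 on the log2 scale (limma adjusted p = 0.0164). Their part in the Cd8a values was not tested.

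Ratios between members do not depend on how libraries are scaled. Of 6 ratios listed, 4 could be computed. Their exact permutation tests (two-sided) gave an adjusted p of 0.8 each over the 4, in a design of 3 against 3 libraries where p cannot go below 0.1 and so cannot pass the threshold. Cd8a over Cd4 was 0.0489, 0.0723 and 0.0893 in Lenv-Treg and 0.0394, 0.147 and 0.095 in Ctrl-Treg libraries (log2 difference -0.27). Cd4 over Cd3e was 1.31, 1.61 and 1.02 in Lenv-Treg and 1.62, 1.31 and 0.743 in Ctrl-Treg libraries (log2 difference 0.15). These ratios overlapped across the groups.
Cd247 over Cd3e was 0.352, 0.549 and 0.484 in Lenv-Treg and 0.349, 0.544 and 0.416 in Ctrl-Treg libraries (log2 difference 0.08). Cd8b1 over Cd8a, which rests on single-figure reads in some libraries, was 1.06, 0.176 and 1.37 in Lenv-Treg and 1.37, 1.84 and 0.141 in Ctrl-Treg libraries (log2 difference -0.16).

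The ratios among the CD3 chains were computed after their values had been seen and carry no test. Cd3d over Cd3g was 0.262, 0.377 and 0.387 in Lenv-Treg and 0.211, 0.159 and 0.235 in Ctrl-Treg libraries. Each Lenv-Treg library was above each Ctrl-Treg library, and the log2 ratio averaged -1.57 ± 0.31 in Lenv-Treg and -2.33 ± 0.29 in Ctrl-Treg skin, a difference of 0.76. Cd3d over Cd3e was 0.992, 2.15 and 2.03 in Lenv-Treg and 1.02, 0.862 and 1.26 in Ctrl-Treg libraries, with Lenv-Treg replicate 1 inside the range of the Ctrl-Treg libraries. Cd3g over Cd3e was 3.78, 5.69 and 5.24 in Lenv-Treg and 4.84, 5.44 and 5.36 in Ctrl-Treg libraries, with a log2 difference of -0.11. In that last ratio the lowest and the highest value were both from Lenv-Treg libraries.

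**Figure D3:**
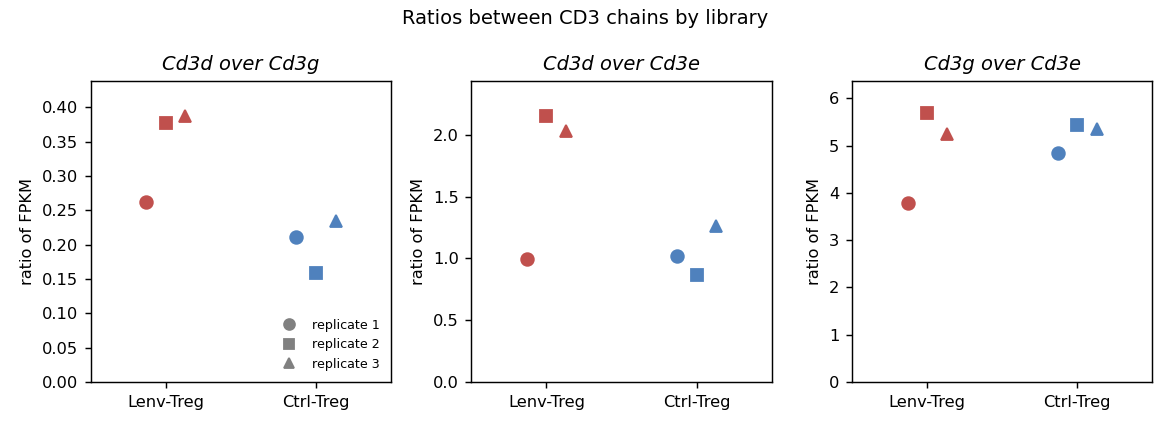
FPKM ratios between CD3 chains in each library on linear axes, Lenv-Treg left of Ctrl-Treg (n = 3 each), with a point per library. The points of Cd3d over Cd3g (0.262 to 0.387 in Lenv-Treg, 0.159 to 0.235 in Ctrl-Treg) do not overlap, whereas those of Cd3d over Cd3e and Cd3g over Cd3e do.

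Over the 6 libraries on the log2(FPKM + 1) scale, Cd3g moved closely with Cd247 (Pearson r = 0.92) and with Cd3e (r = 0.89), and less with Cd3d (r = 0.44). Cd3d and Cd4 had r = -0.01. These are descriptions over 6 libraries that share a table and its scaling, with no p.

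The proximal signalling list holds the kinases and adaptors that act directly below the receptor. Of its 26 genes, 25 were in the table and 18 tested. Of these, 3 rose (Lcp2, Vav1, Rasgrp1) and 2 fell (Lck, Fyn), where 11.0% of all tested genes rose and 30.8% fell. The median log2 difference was -0.05 beside -0.17 over all genes. Lck, the kinase that phosphorylates the CD3 tails, had 1.2, 0.863 and 1.32 FPKM in Lenv-Treg and 2.43, 2.16 and 2.51 FPKM in Ctrl-Treg libraries. All Lenv-Treg libraries were lower than all Ctrl-Treg libraries, 0.477-fold in the means (log2 difference -0.67, SE 0.11, limma adjusted p = 0.00305). Fyn, a related kinase, averaged 4.37 FPKM in Lenv-Treg and 6.62 FPKM in Ctrl-Treg skin (-0.51, limma adjusted p = 0.026). Fyn did not pass with Lenv-Treg replicate 2 or 3 or Ctrl-Treg replicate 1 or 2 left out (-0.62 to -0.38 over all 6 omissions), with no filter, or after median-of-ratios scaling. Vav1 and Rasgrp1 passed in only 1 of the 6 omissions, that of Ctrl-Treg replicate 1 (0.42 to 0.86 for Vav1 and 0.36 to 0.60 for Rasgrp1 over the 6), and passed neither with no filter nor on TPM values.
Lcp2 (SLP-76), an adaptor also used in myeloid cells, had 14.4, 18.2 and 18.0 FPKM in Lenv-Treg and 12.2, 6.44 and 8.91 FPKM in Ctrl-Treg libraries. It was higher in every Lenv-Treg library (log2 difference 0.84, SE 0.21, limma adjusted p = 0.0149), but it no longer passed once Lenv-Treg replicate 2 or 3 was left out. Zap70, the kinase that docks on the phosphorylated tails, averaged 0.676 FPKM in Lenv-Treg and 0.735 FPKM in Ctrl-Treg skin (limma adjusted p = 0.713). Lat, the membrane adaptor that Zap70 phosphorylates, averaged 2.77 and 2.3 FPKM in the same order (adjusted p = 0.339). The phosphatase Ptpn6 (33.0 ± 2.19 FPKM in Lenv-Treg and 31.8 ± 11.8 FPKM in Ctrl-Treg skin) and the Lck inhibitor Csk (18.9 ± 0.316 FPKM in Lenv-Treg and 20.1 ± 1.85 FPKM in Ctrl-Treg skin), both widely used outside T cells, did not pass (limma adjusted p = 0.736 and 0.519).

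The surface receptor list, costimulatory and checkpoint receptors of T cells, had 20 genes in the table and 11 tested. Of these, 4 rose (Cd5, Icos, Tnfrsf9, Havcr2) and 4 fell (Cd2, Cd7, Cd226, Btla), where 11.0% of all tested genes rose and 30.8% fell. The median log2 difference of the list was 0.19, and -0.05 after rescaling to TPM, beside -0.17 and -0.44 over all tested genes. Cd2, an adhesion receptor of T and NK cells, had 1.88, 1.43 and 1.79 FPKM in Lenv-Treg and 3.28, 2.48 and 4.04 FPKM in Ctrl-Treg libraries, with no overlap (log2 difference -0.65, SE 0.15, limma adjusted p = 0.012). Cd226, an activating receptor of T and NK cells, had 0.284, 0.338 and 0.234 FPKM in Lenv-Treg and 0.85, 0.673 and 1.18 FPKM in Ctrl-Treg libraries (log2 difference -0.56, SE 0.11, limma adjusted p = 0.00741). Both were lower in every Lenv-Treg library.
Cd7, another T and NK cell receptor, had 4.11, 3.39 and 5.14 FPKM in Lenv-Treg and 8.61, 5.49 and 7.17 FPKM in Ctrl-Treg libraries (-0.63, SE 0.18, limma adjusted p = 0.0255). It did not pass with Lenv-Treg replicate 1 or 2 or Ctrl-Treg replicate 1 or 3 left out (-0.78 to -0.50 over all 6 omissions), with no filter, or after median-of-ratios scaling (-0.45, adjusted p = 0.0962). Icos, a costimulator of activated and regulatory T cells, had 1.47, 1.18 and 2.1 FPKM in Lenv-Treg and 0.684, 0.372 and 0.693 FPKM in Ctrl-Treg libraries, 2.72-fold higher in the means (log2 difference 0.70, SE 0.15, limma adjusted p = 0.00949). Cd5, which dampens receptor signals, averaged 1.98 ± 0.181 FPKM in Lenv-Treg and 1.1 ± 0.314 FPKM in Ctrl-Treg skin (0.51, limma adjusted p = 0.0156; n = 3 each), and did not pass with Lenv-Treg replicate 2 left out or on TPM values. Tnfrsf9 did not pass with replicate 2 or 3 of either group left out (0.52 to 1.01 over the 6 omissions) or with no filter. Havcr2 did not pass with any Lenv-Treg library left out (0.41 to 0.77), with no filter, or on TPM values. Btla did not pass with Lenv-Treg replicate 1 or 2 or Ctrl-Treg replicate 1 or 3 left out (-0.38 to -0.28), or after median-of-ratios scaling. Tnfrsf4 (OX40), a costimulator high on activated and regulatory T cells, had 2.79, 2.62 and 5.79 FPKM in Lenv-Treg and 3.24, 2.89 and 2.82 FPKM in Ctrl-Treg libraries, with a single high library, Lenv-Treg replicate 3 (limma adjusted p = 0.538). Of the signalling and surface genes that passed, Lck, Cd2 and Cd226 (lower) and Icos (higher) kept their calls in each setting run for them. The CD3 chains did not pass in the reported fit, though Cd3g did in some other settings and Cd247 did after rescaling to TPM. Whether Lck, Cd2, Cd226 and Icos differed from the CD3 chains in their change was not tested.

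**Figure D4:**
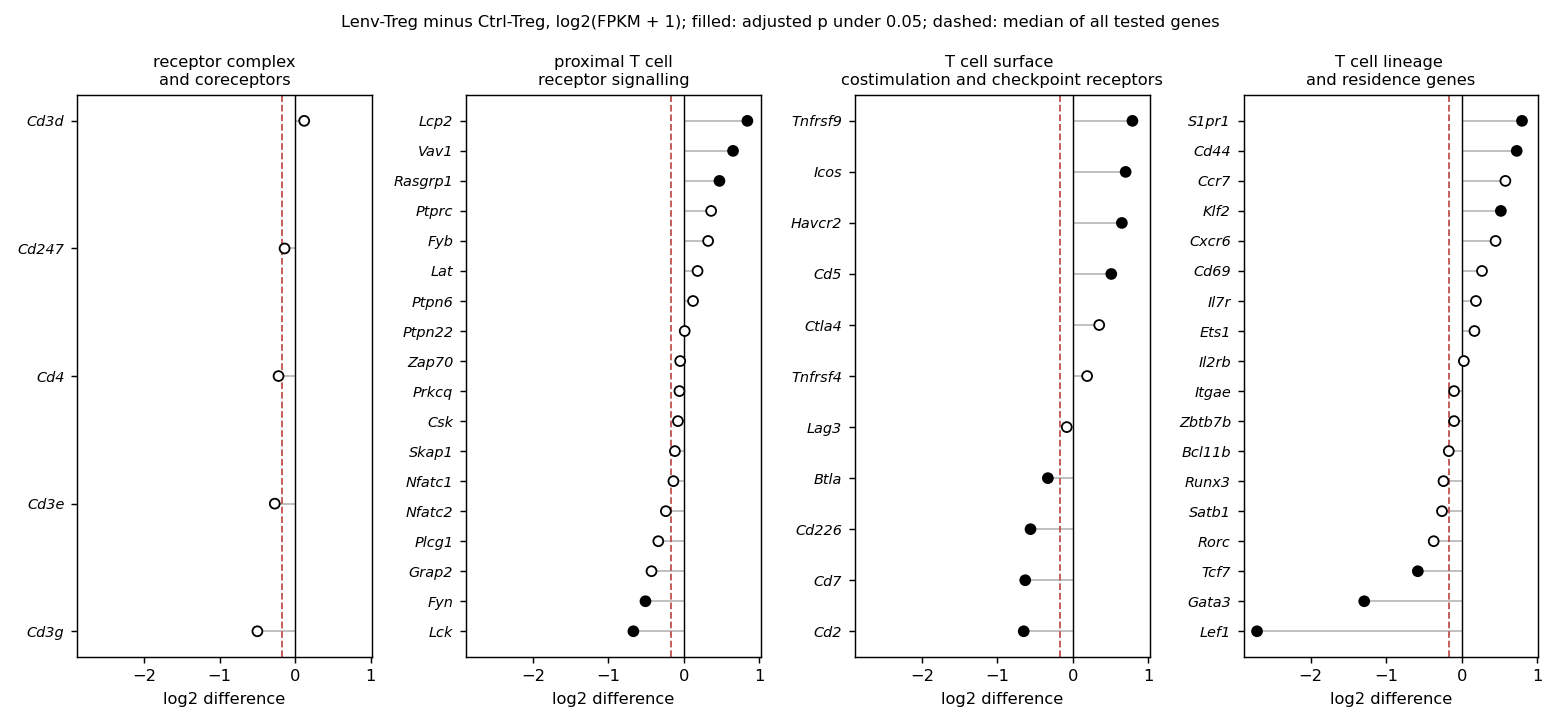
Log2 differences, Lenv-Treg minus Ctrl-Treg (values as log2 of FPKM + 1), of each tested gene (points) among the receptor complex and coreceptors and the signalling, surface receptor and lineage lists, with filled points for genes that passed the test and a dashed line at the median of all tested genes. The 5 tested members hold no passing gene, and the 3 other lists hold passing genes on both sides of 0.

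The lineage and residence list (21 genes in the table, 18 tested) had 3 genes higher (S1pr1, Klf2, Cd44) and 3 lower (Tcf7, Lef1, Gata3), with a median log2 difference of -0.04, or 0.13 after median-of-ratios scaling and -0.26 after rescaling to TPM. Tcf7, a factor of naive and memory T cells, had 0.812, 0.812 and 1.04 FPKM in Lenv-Treg and 1.74, 1.75 and 1.99 FPKM in Ctrl-Treg libraries, 0.486-fold in the means (-0.58, SE 0.09, limma adjusted p = 0.00256). Lef1, its relative, which hair follicle cells also use, averaged 0.142 FPKM in Lenv-Treg and 6.77 FPKM in Ctrl-Treg skin (-2.71, limma adjusted p = 0.000183). Gata3, also a gene of epidermis and hair follicle, averaged 8.18 and 21.2 FPKM in the same order (-1.29, limma adjusted p = 0.00128).
Cd44, an adhesion receptor of many cells, averaged 56.6 ± 4.7 FPKM in Lenv-Treg and 33.6 ± 0.448 FPKM in Ctrl-Treg skin (0.73, limma adjusted p = 0.00106; n = 3 each). Klf2 passed in only 1 of the 6 omissions, that of Ctrl-Treg replicate 2 (0.33 to 0.64 over the 6), and passed neither with no filter nor on TPM values, and S1pr1 did not pass on TPM values (0.54, adjusted p = 0.0766). Zbtb7b, the factor that sets the CD4 lineage and is also made by skin cells, averaged 27.6 FPKM in Lenv-Treg and 29.6 FPKM in Ctrl-Treg skin (limma adjusted p = 0.417). Foxp3, the defining factor of Tregs, named after its values were seen, was outside the filter, with 0.248, 0.291 and 0.264 FPKM in Lenv-Treg and 0.285, 0.13 and 0.164 FPKM in Ctrl-Treg libraries. Its groups overlapped through Ctrl-Treg replicate 1 (exact permutation test, two-sided, p = 0.3).

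The gamma delta T cell list had 13 of 16 genes in the table and 11 tested. Of these, 4 were higher (Zbtb16, Ly6c2, Jaml, Il1r1) and 1 lower (Sox13), where 11.0% of all tested genes were higher and 30.8% lower. The median log2 difference was 0.38, or 0.15 after rescaling to TPM, beside -0.17 and -0.44 over all tested genes. Sox13, a factor of IL-17-producing gamma delta cells that hair follicles also use, had 3.41, 3 and 2.59 FPKM in Lenv-Treg and 9.84, 10.6 and 9.62 FPKM in Ctrl-Treg libraries (-1.47, limma adjusted p = 0.00011). Jaml, a costimulator of epidermal gamma delta cells that neutrophils also carry, averaged 4.18 ± 0.537 FPKM in Lenv-Treg and 1.81 ± 0.407 FPKM in Ctrl-Treg skin (0.89, limma adjusted p = 0.0022; n = 3 each). Il1r1, the IL-1 receptor, averaged 12.6 FPKM in Lenv-Treg and 9.18 FPKM in Ctrl-Treg skin (0.41, limma adjusted p = 0.013), and did not pass with Lenv-Treg replicate 2 left out or on TPM values. Ly6c2 did not pass with replicate 2 or 3 of either group left out (0.58 to 0.90 over the 6 omissions), with no filter, or on TPM values. Maf, a factor also high in macrophages, averaged 32.4 FPKM in Lenv-Treg and 35.6 FPKM in Ctrl-Treg skin and did not pass (limma adjusted p = 0.351). Blk (0.40, limma adjusted p = 0.113) and Scart2 (0.38, limma adjusted p = 0.165) did not pass either. Trdc was not analysed here and genes of the list are shared with other cells, so its counts are not a reading of gamma delta T cells alone.

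Of the 27 other receptor constant regions and segments listed, none was analysed here. The thymus and recombination list had 7 genes in the table and 2 tested, with Cd24a higher and Cd1d1 lower, both genes of many cells. Rag2, which joins receptor gene segments, was listed at 0 in all 6 libraries. The NK and cytotoxic list (16 genes, 15 tested) had 3 genes higher (Fcer1g, Fcgr3, Tyrobp) and 4 lower (Klrk1, Nkg7, Prf1, Xcl1), with a median of -0.21. The higher genes encode signalling chains and an Fc receptor that myeloid cells also carry, with log2 differences of 0.63 for Fcer1g, 1.47 for Fcgr3 and 1.05 for Tyrobp (limma adjusted p = 0.0381, 0.000165 and 0.00337). Fcer1g did not pass with replicate 2 or 3 of either group left out (0.44 to 0.78 over the 6 omissions), with no filter (adjusted p = 0.0855), or on TPM values (0.34, adjusted p = 0.123). Prf1 passed in 3 of 14 other settings and in none of the 6 omissions (-0.46 to -0.29). Klrk1 did not pass with Lenv-Treg replicate 1 or 2 or Ctrl-Treg replicate 1 or 3 left out (-0.69 to -0.44), with no filter, or after median-of-ratios scaling.
Xcl1, a chemokine of NK and T cells and the ligand of Xcr1, had 1.01, 0.48 and 0.731 FPKM in Lenv-Treg and 2.64, 2.37 and 2.89 FPKM in Ctrl-Treg libraries (-1.07, SE 0.13, limma adjusted p = 0.000818). Nkg7, a cytotoxic granule gene, averaged 2.47 FPKM in Lenv-Treg and 4.74 FPKM in Ctrl-Treg skin (-0.73, limma adjusted p = 0.0153), and did not pass with Lenv-Treg replicate 2 left out. These genes, like Cd247, are shared between NK and T cells.

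Genes whose pattern over the 6 libraries was most like the mean log2(FPKM + 1) of Cd3d, Cd3e and Cd3g were Acd, Amz1 and Pim2 (Pearson r = 0.97 each), Lsm11 and Itgax (0.96 each), Cyb5rl and Apoc1 (0.95 each) and Acbd6 (0.94). Members and predicted genes were left out of that ranking. Of 13945 genes, 35 had r of at least 0.9, among them Cd3g itself (0.93), which is part of the mean. Cd247, outside the mean, had r = 0.81. Among other T cell genes the r was 0.65 for Lck, 0.68 for Cd2, 0.57 for Tcf7 and 0.01 for Icos. In the NK and cytotoxic list the tested genes ran from -0.40 for Fcgr3 to 0.93 for Gzmc. Over the tested genes of the surface receptor list the r ran from -0.27 for Cd5 to 0.86 for Cd7. With 6 libraries these values describe the pattern only.

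Markers of other cells moved with the groups, and their part in the member values was not tested. The 7 members summed to 9.12 to 15.0 FPKM in Lenv-Treg and 12.7 to 19.0 FPKM in Ctrl-Treg libraries. Of the 12 neutrophil markers, 10 were tested, and 9 of these rose and none fell. The 12 summed to 38092 to 53793 FPKM in Lenv-Treg and 55.2 to 195 FPKM in Ctrl-Treg libraries. Without S100a8 and S100a9, the other 10 summed to 224, 442 and 311 FPKM in Lenv-Treg and 13.9, 11.4 and 8.79 FPKM in Ctrl-Treg libraries. The 14 macrophage markers (6 higher, 1 lower) summed to 3974 to 4474 FPKM in Lenv-Treg and 2490 to 3177 FPKM in Ctrl-Treg libraries. The 5 keratinocyte markers (2 higher, 1 lower) summed to 7145 to 8882 FPKM in Lenv-Treg and 2612 to 4256 FPKM in Ctrl-Treg libraries, and each of the 5 was detected in skin of both groups. Without Krt14 the keratinocyte sums overlapped, at 4465, 2693 and 2851 FPKM in Lenv-Treg and 3333, 2001 and 2788 FPKM in Ctrl-Treg libraries.
The 13 dendritic and Langerhans cell markers (11 tested, 1 higher and 4 lower) summed to 161 to 194 FPKM in Lenv-Treg and 143 to 159 FPKM in Ctrl-Treg libraries. Clec10a had the highest mean of the list, with 92.3, 115 and 125 FPKM in Lenv-Treg and 62.9, 70.5 and 45.7 FPKM in Ctrl-Treg libraries. It rose (log2 difference 0.89, limma adjusted p = 0.00802). Without Clec10a the other 12 summed to 68.6, 55.1 and 68.9 FPKM in Lenv-Treg and 95.8, 76.6 and 97.3 FPKM in Ctrl-Treg libraries. That sum was lower in every Lenv-Treg library, but it includes Epcam, also a hair follicle gene, which had the highest mean of the 12. Epcam had 25.7, 11.4 and 20.5 FPKM in Lenv-Treg and 41.7, 40 and 45 FPKM in Ctrl-Treg libraries, and fell (-1.16, limma adjusted p = 0.00978). A sum without Epcam was not computed, so the lower sum is not a reading of dendritic cells alone. The 16 NK markers summed to 862 to 1117 FPKM in Lenv-Treg and 468 to 675 FPKM in Ctrl-Treg libraries, nearly all of it from Fcer1g, Fcgr3 and Tyrobp. Without these 3, which myeloid cells also carry, the other 13 summed to 36.2, 23.1 and 40 FPKM in Lenv-Treg and 55.3, 43.5 and 38.7 FPKM in Ctrl-Treg libraries, so the order of the sums turned and the groups overlapped. The B cell markers, with 7 in the table, summed to 5.02 to 6.58 FPKM in Lenv-Treg and 4.01 to 6.49 FPKM in Ctrl-Treg libraries. Only 1 of them, Cd79b, was tested, and it did not pass. Without Cd79b the other 6 summed to 0.848, 0.984 and 1.49 FPKM in Lenv-Treg and 0.436, 0.464 and 0.403 FPKM in Ctrl-Treg libraries. That sum was higher in every Lenv-Treg library, but it rests on genes outside the filter and was not tested. No marker of these 6 lists was at 0 in all libraries.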

How the data were processed

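The authors deposited FPKM for 35434 genes in 6 samples. The labels' protocols name TRIzol extraction and a VAHTS Universal V10 library kit. Per the submitters' processing notes the genome was GRCm39. Aligner, counter, strand setting and annotation were not given in the sources used here, so reads of overlapping genes may be shared. No coordinates of that build are printed, and promoters are RefSeq's, on GRCm38.p6. All columns matched a sample title.

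Whole reads were recovered from the FPKM steps (13945 of 13945 tested genes whole, tolerance 0.005 reads plus 1.5e-07 per read). At this depth 1 read on a 1 kb gene was worth 0.0248 to 0.0258 FPKM. Recovery and fit were tested on simulated data. Genes with FPKM of at least 0.5 in at least 3 samples were fitted with limma 3.58.1 in R 4.3.3 (lmFit, eBayes with trend) on log2(FPKM + 1), two-sided, without covariates, with Benjamini-Hochberg adjustment at 0.05. The pseudocount understates changes of low genes. Genes outside the filter and ratios had exact permutation tests (scipy 1.17.1).

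The members and the 13 lists were chosen with earlier results of these data known, and some genes of the signalling and lineage lists are not reported here. Named genes were all members and, of each list, its 2 most abundant tested genes plus the 2 remaining ones of lowest p. Of the thymus, macrophage, B cell, neutrophil and keratinocyte lists only counts, sums, called genes or genes left out of a sum are given. Called genes of the signalling, surface, lineage, gamma delta and NK lists, and Zap70, Lat, Foxp3, Blk, Scart2 and Gzmc, were named after their values were seen. Sums with leading markers left out were added after seeing the data. Alternatives were the pseudocount, filter, scaling, moderation, replicate block, voom and leaving out each library.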

Additional observations from a re-analysis of the deposited data

How the results depend on the processing

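No member passed as higher under any setting run. As lower, 0 passed in the reported fit, 2 after rescaling to TPM (Cd3g and Cd247), 1 with a replicate block (Cd3g, adjusted p = 0.0258) and 0 to 1 when 1 library was left out. Over all genes, 1532 were higher and 4289 lower. These counts were 2417 and 2417 after median-of-ratios scaling and 947 and 7970 after rescaling to TPM. Leaving out 1 library gave 1152 to 1447 higher and 2780 to 3900 lower, the lowest without Lenv-Treg replicate 2. Voom on recovered reads gave 1537 and 4332, and 7147 genes had an unadjusted p under 0.05 in the reported fit. Cd8a and Cd8b1, at 41 and 18 reads in Lenv-Treg and 63 and 39 in Ctrl-Treg libraries, rest on few reads.

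Log2 differences changed sign after rescaling to TPM for Cd3d (-0.08), Ptpn6 (-0.16), Lat (-0.03) and Tnfrsf4 (-0.05), and after median-of-ratios scaling for Zap70 (0.04), Csk (0.12), Zbtb7b (0.11), Maf (0.07), Acd (0.11), Pim2 (0.10), Lsm11 (0.08) and Itgax (0.05). Leaving out 1 library changed the sign within ranges of -0.09 to 0.26 for Cd3d, -0.42 to 0.05 for Cd4, -0.26 to 0.00 for Cd8b1, -0.21 to 0.35 for Ptpn6, -0.10 to 0.35 for Tnfrsf4, -0.31 to 0.03 for Amz1, -0.10 to 0.00 for Lsm11 and -0.24 to 0.03 for Itgax. The log2 ratio differences ranged from -0.80 to 0.15 for Cd8a over Cd4, -1.32 to 0.76 for Cd8b1 over Cd8a, -0.07 to 0.26 for Cd247 over Cd3e and -0.17 to 0.39 for Cd4 over Cd3e. Apart from the TPM and scaling shifts themselves, the cause was not tested. Lck, Cd2, Cd226, Icos, Tcf7, Lef1, Gata3, Cd44, Sox13, Jaml, Xcl1, Xcr1 and Batf3 kept their calls in each setting run for them.

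Same-numbered samples did not deviate together throughout (r = 0.20, -0.01 and 0.33 for numbers 1 to 3), so the numbers were not taken to pair the samples. Numbers 1 and 3 correlated best with their own number and Lenv-Treg replicate 2 did not, and the replicate block gave 1637 genes higher and 4270 lower.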
